A study of Mus musculus with 42 samples.

Results

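Trim71 and its relatives Trim2, Trim3 and Trim32 encode the TRIM-NHL proteins of the mouse measured here. The 4 genes were chosen by family name with no threshold on a measured value, though with earlier results of these data known, and each has 1 row among the 18825 genes of experiment 1 and 1 among the 19866 genes of experiment 2. All 4 passed the filter on low counts in both experiments, which left 18772 and 19778 genes to test. The measurements come from RNA immunoprecipitation followed by sequencing (RIP-seq) of HA-AVI-Tnrc6a, in which anti-HA magnetic beads pull tagged Tnrc6a out of a cell lysate and the RNA on the beads (IP) is sequenced beside the RNA of the lysate (input). The 42 libraries form 14 groups of 3, which are input and IP of 3 genotypes in experiment 1 and of 4 genotypes in experiment 2. All cells are mouse embryonic stem cells of the strain 129S6/SvEvTac that carry the GFP_5xT71BS reporter in the yGlob line and stably express FLAG-Cas9 with a blasticidin resistance gene, and the controls carry these too. They were grown on gelatin with serum and LIF, a cytokine that keeps such cells undifferentiated. The untagged control has nothing further. The tagged cells add HA-AVI-Tnrc6a, cells labelled Trim71KO add HA-AVI-Tnrc6a and Trim71-/-, and cells labelled Ago2KO, which are in experiment 2 only, add HA-AVI-Tnrc6a and Ago2-/-. The labels do not say how each knockout was made, how many clones stand behind it or whether the 3 libraries of a group come from separate cultures beyond being grown in triplicate, so p-values measure the spread between these libraries.

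Tnrc6a belongs to the GW182 family, scaffold proteins that Argonaute proteins recruit to microRNA targets and that in turn recruit the deadenylation machinery. Trim71, also known as Lin41, is an RNA-binding protein of embryonic stem cells whose NHL domain contacts hairpins in target mRNAs and whose RING domain is that of an E3 ubiquitin ligase. Its own mRNA is a classical target of the let-7 microRNAs, and of the miR-125 family, through sites in its 3′ untranslated region. Trim2 and Trim3 are paralogues best known from neurons, and Trim32 is a ubiquitin ligase of muscle and neural progenitors whose NHL domain is mutated in a limb-girdle muscular dystrophy. The question asked of these libraries was how strongly each of the 4 mRNAs was bound to tagged Tnrc6a, and how that changed in cells labelled as lacking Trim71 or Ago2.

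The sequences of the microRNAs for which Trim71 mRNA is best known as a target are given for orientation, since small RNAs were not measured in these libraries. They are RefSeq entries of GRCm38.p6 written from the 5′ end, and the capitals mark the seed, bases 2 to 8, which pairs with the target mRNA.
mmu-let-7a-5p: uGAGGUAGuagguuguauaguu
mmu-let-7g-5p: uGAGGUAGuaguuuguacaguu
mmu-miR-125b-5p: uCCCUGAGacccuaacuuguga
The let-7 entries share the seed GAGGUAG, which 13 mature entries of that table carry, and miR-125b has the seed CCCUGAG, which 6 carry.

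In GRCm38.p6, Trim71 (ENSMUSG00000079259) lies on the minus strand at chr9:114511268-114564369. Trim2 (ENSMUSG00000027993) lies on the minus strand at chr3:84160439-84308352, Trim3 (ENSMUSG00000036989) on the minus strand at chr7:105604463-105633574 and Trim32 (ENSMUSG00000051675) on the plus strand at chr4:65604986-65616240. Counts are per gene and cover whichever exons the deposited gene models hold, not a single site. The model lengths are 9332 bases for Trim71, 19751 for Trim2, 4569 for Trim3 and 3229 for Trim32. Trim32 lies inside Astn2, a gene of neurons on the opposite strand, which was not among the genes tested. The kit marks strand, but whether the counting used strand is not stated.

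Library totals ran from 12587257 to 23657840 counts in experiment 1 and from 16296447 to 21026552 in experiment 2. Levels are given as CPM, the count of a gene relative to the TMM-scaled total of its library. A log2 change is called where its Benjamini-Hochberg adjusted p over all genes, from edgeR's quasi-likelihood test, is under 0.05. Tnrc6a mRNA itself was at 12945 to 31194 CPM in the IP libraries of experiment 2 that carry the tag and at 74.2 to 90.4 CPM in untagged IP. In experiment 1 it was at 13373 to 29473 CPM with the tag and at 89.6 to 94.0 CPM without. Ago2 input RNA of cells labelled Ago2KO was at 162 ± 4.76 CPM against 353 ± 34.9 CPM in tagged cells (SD, n = 3 each). The 8 stem cell markers summed to 6197 to 6707 CPM in tagged and 7165 to 7338 CPM in Trim71KO input of experiment 1, with Pou5f1 at 1341 to 1754 CPM over all inputs, while the summed primitive endoderm markers were low and lower still in cells labelled Trim71KO. These markers (5 of 5 measured in experiment 1 and 4 of 5 in experiment 2, without Foxa2) summed to 32.6 to 39.0 CPM in tagged and 8.46 to 9.40 CPM in Trim71KO input of experiment 1. In experiment 2 the sums were 12.0 to 13.1 CPM in tagged, 5.06 to 6.75 CPM in Trim71KO and 6.84 to 7.79 CPM in Ago2KO input. There Gata6, Gata4 and Sox17 were lower in Trim71KO than in tagged input without overlap. Sox7 did not fall, at 1.06 to 2.29 CPM in tagged and 1.42 to 2.16 CPM in Trim71KO input. Of the fibroblast markers, only Col1a1 and Thy1 of 5 were measured, and they summed to 22.6 to 24.5 CPM in tagged and 58.0 to 61.8 CPM in Trim71KO input of experiment 1, nearly all of it Thy1. In experiment 2 they summed to 34.2 to 35.8 CPM in tagged and 49.5 to 51.9 CPM in Trim71KO input. Neural markers, 2 of 3 measured, summed to 12.4 to 13.2 CPM in tagged and 6.17 to 6.85 CPM in Trim71KO input of experiment 1 and to 14.6 to 16.4 CPM and 7.03 to 9.28 CPM in those of experiment 2. Nearly all of each neural sum was Sox1. Mesoderm markers, 2 of 3 measured in experiment 1, summed to 4.78 to 5.29 CPM in tagged and 6.34 to 8.30 CPM in Trim71KO input there. The rise was in Eomes, at 3.92 to 4.19 CPM in tagged and 5.98 to 7.43 CPM in Trim71KO input. Mixl1 did not rise, at 0.859 to 1.29 CPM and 0.352 to 0.870 CPM. In experiment 2, with 3 of 3 measured, the sums overlapped, at 10.8 to 12.2 CPM in tagged, 12.0 to 14.9 CPM in Trim71KO and 11.3 to 12.5 CPM in Ago2KO input. The stem cell markers of experiment 2 summed to 6902 to 7111 CPM in tagged, 7886 to 8120 CPM in Trim71KO and 7880.3 to 7948 CPM in Ago2KO input. In experiment 1, Esrrb, Zfp42, Tfcp2l1 and Klf4 were higher in Trim71KO than in tagged input without overlap. Pou5f1, Sox2, Nanog and Dppa5a overlapped there. In experiment 2 the set was another one. Pou5f1, Sox2, Nanog, Zfp42, Tfcp2l1 and Klf4 were higher in Trim71KO than in tagged input without overlap, while Esrrb and Dppa5a overlapped. The share of all genes that lie apart in this way was not counted. The part of these differences in the values of the TRIM-NHL genes was not tested.

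Trim71 mRNA was bound to tagged Tnrc6a in both experiments, lost most of that enrichment in cells labelled Trim71KO and part of it in cells labelled Ago2KO. In cells labelled Trim71KO this mRNA comes from the altered gene itself. Absence of the protein and a change in the mRNA cannot be told apart there for Trim71. Its level in the lysate did not fall in the Trim71KO libraries. In input RNA of experiment 1, Trim71 was at 215, 227 and 231 CPM in untagged cells, at 265, 227 and 230 CPM in tagged cells and at 284, 283 and 278 CPM in cells labelled Trim71KO. The 3 Trim71KO libraries were the highest of the 9 inputs and did not overlap either other genotype. The log2 change of Trim71KO against tagged was 0.23 (SE 0.086, edgeR adjusted p 0.0437), and 34% of all genes were called in that comparison. The call was lost with RLE size factors (edgeR adjusted p 0.0538) and with the replicate number as a block within fraction (0.0506). It was also lost in 5 of the 6 fits that left out 1 library, where the change ran from 0.18 to 0.28.

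The input levels of Trim71 in experiment 2 were 270, 278 and 267 CPM in untagged cells, 309, 265 and 273 CPM in tagged cells, 368, 387 and 376 CPM in cells labelled Trim71KO and 268, 266 and 257 CPM in cells labelled Ago2KO. The Trim71KO inputs were again above all others, without overlap. The log2 change against tagged was 0.42 (SE 0.083, edgeR adjusted p 4.11e-04), among 27.2% of all genes called. In cells labelled Ago2KO the input change was -0.10 (SE 0.083, edgeR adjusted p 0.574), where 6.96% of all genes were called. Trim71 mRNA thus does not check the Trim71KO label from these counts, since the gene's counts were not lower in those libraries and the altered part of the gene is not given. In whole lysates, a higher share of cells with the RNA and more RNA per cell cannot be told apart. Tagging alone made no called difference in input for any of the 4 genes (edgeR adjusted p 0.306 to 0.994), with 10.6% of all genes called in experiment 1 and 1.39% in experiment 2.

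**Figure D1:**
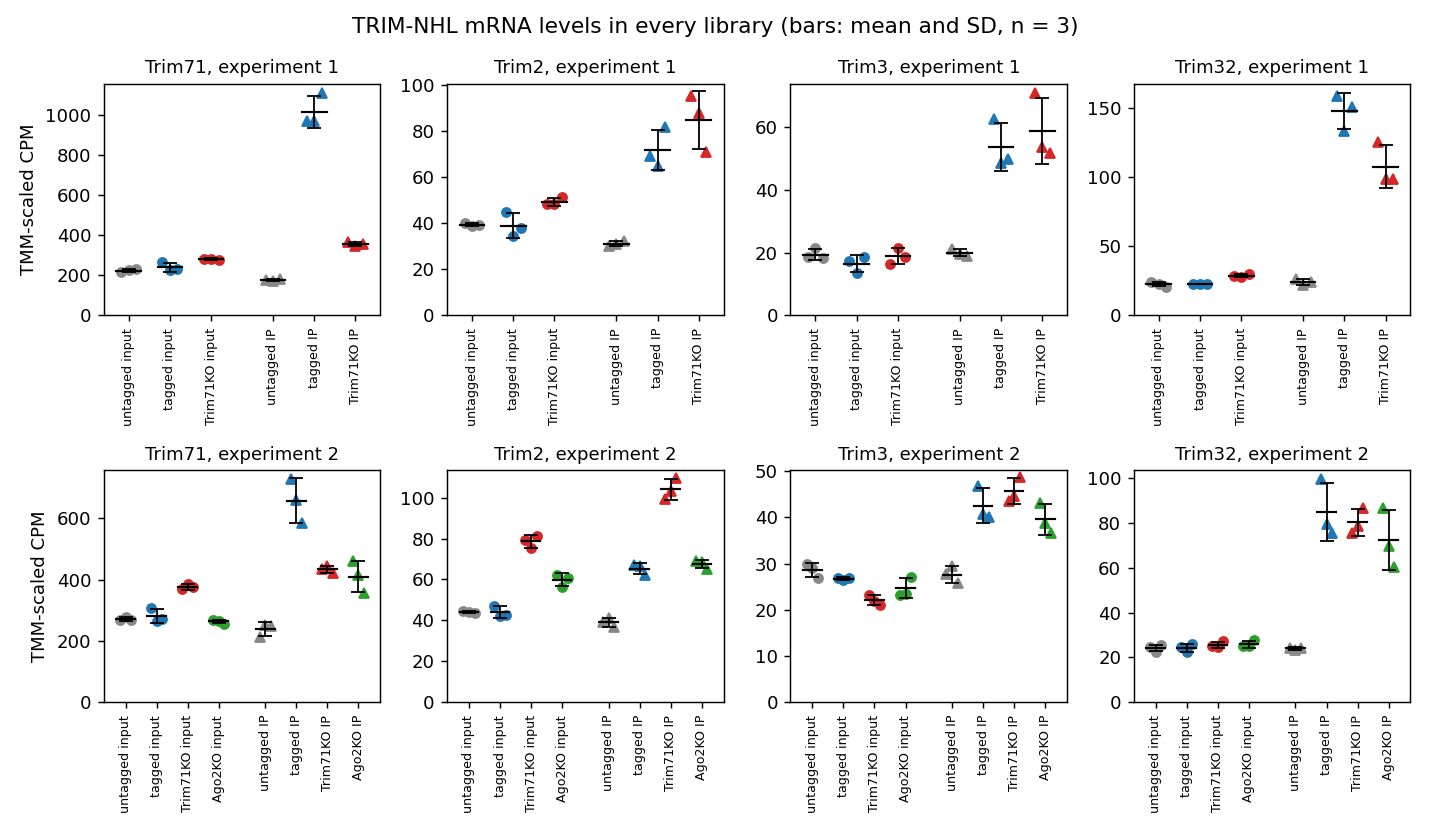
TMM-scaled CPM of Trim71, Trim2, Trim3 and Trim32 (y axes, linear from 0) in every library by genotype, with input as circles and IP as triangles; black bars give the mean and SD of 3 libraries. Trim71 in tagged IP of experiment 1 sits between 968 and 1110 CPM, above every other library of that experiment, and the Trim71KO inputs are the highest inputs.

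On the beads, Trim71 RNA of experiment 1 was at 178, 171 and 183 CPM in untagged cells, at 968, 973 and 1110 CPM in tagged cells and at 365, 345 and 355 CPM in cells labelled Trim71KO. Tagged IP was highest, Trim71KO IP was between, and the 3 genotypes did not overlap. Trim71 made up 0.0836% to 0.0918% of all counts of the tagged IP libraries and was the gene ranked 86 by CPM there, against rank 648 in tagged input. The IP of untagged cells measures RNA that sticks to beads without the tag. In it Trim71 was lower than in the untagged input, with a log2 change of -0.34 (SE 0.087, edgeR adjusted p 0.0116), and 12.1% of all genes were called in that comparison. That call was lost with the replicate number as a block within fraction (edgeR adjusted p 0.0583) and without untagged IP replicate 2 (0.0527). It was kept with the block by culture.

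The IP levels of Trim71 in experiment 2 were 212, 252 and 249 CPM in untagged cells, 730, 660 and 585 CPM in tagged cells, 436, 444 and 421 CPM in cells labelled Trim71KO and 460, 415 and 356 CPM in cells labelled Ago2KO. Tagged IP was again highest without overlap, and the IP libraries of the knockout labels overlapped each other and lay above untagged IP. Bead background in untagged cells was not called for any of the 4 genes in experiment 2 (edgeR adjusted p 0.230 to 0.985), where 0.728% of all genes were called. Ordered by mean CPM, Trim71 ran in experiment 1 from untagged IP over untagged input, tagged input, Trim71KO input and Trim71KO IP to tagged IP. Only untagged and tagged input overlapped as neighbours in that order. The order in experiment 2 was untagged IP, Ago2KO input, untagged input, tagged input, Trim71KO input, Ago2KO IP, Trim71KO IP and tagged IP. There the inputs of Ago2KO, untagged and tagged cells overlapped from neighbour to neighbour, as did Trim71KO input with Ago2KO IP and the latter with Trim71KO IP.

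Tag-specific enrichment is the log2 change from input to IP in tagged cells less the same change in untagged cells. In experiment 1 the ratio of IP to input of Trim71 was 3.65, 4.29 and 4.83 in the same-numbered tagged libraries and 0.830, 0.754 and 0.794 in untagged libraries. Any pairing of the 3 IP and 3 input libraries left the genotypes apart, with 3.65 to 4.89 in tagged and 0.741 to 0.854 in untagged cells. The log2 change was 2.42 (SE 0.12, edgeR adjusted p 4.39e-14), a 5.34-fold difference, which ranked 1242 from the top of 18772 genes. In experiment 2 the ratios were 2.36, 2.49 and 2.14 in tagged and 0.785, 0.906 and 0.934 in untagged libraries, again without overlap. The log2 change was 1.41 (SE 0.12, edgeR adjusted p 2.55e-10), a 2.66-fold difference and rank 1335 of 19778. Of all genes, 56.9% were called in experiment 1, 28.1% as higher. In experiment 2, 27.7% were called and 18.9% as higher. All 4 TRIM-NHL genes were called higher in both experiments.

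**Figure D2:**
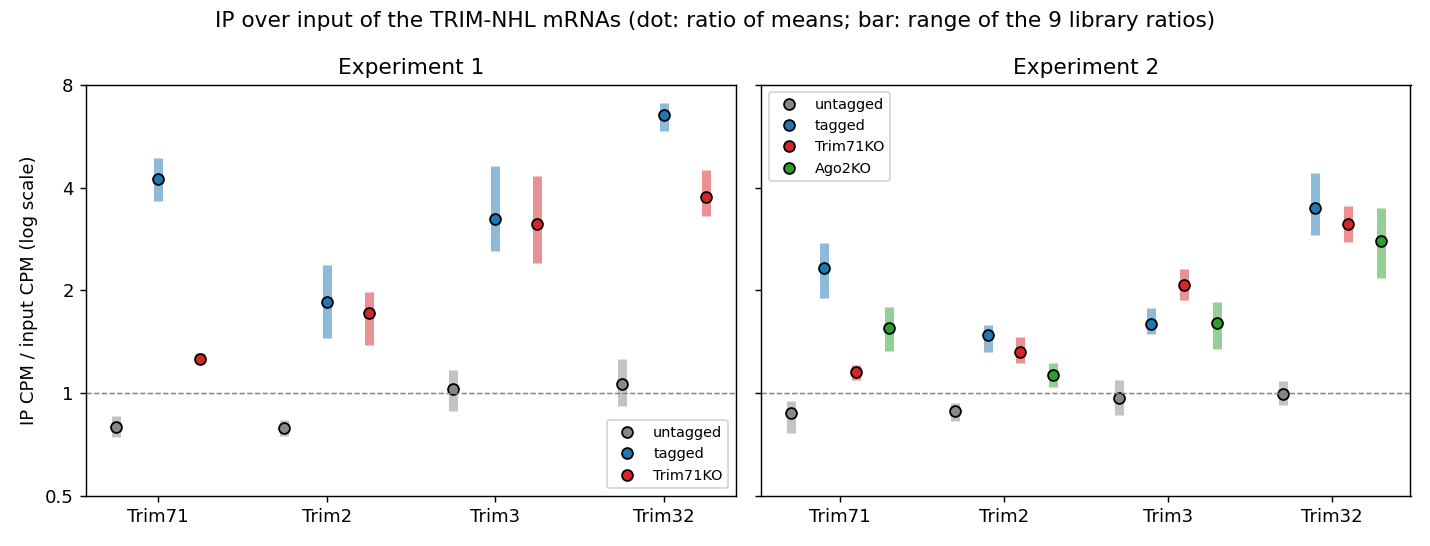
Ratio of IP CPM to input CPM (y axis, log scale) of the TRIM-NHL mRNAs by genotype in each experiment; dots are ratios of group means and bars span the 9 ratios that 3 IP and 3 input libraries give. In experiment 1 Trim71 drops from 4.23 in tagged to 1.26 in Trim71KO cells, while Trim3 is at 3.24 and 3.13.

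Trim71-dependent enrichment sets the ratio of IP to input in cells labelled Trim71KO against that in tagged cells. For Trim71 in experiment 1 the ratio was 1.29, 1.22 and 1.27 in the Trim71KO libraries, below all tagged ratios. The log2 change was -1.75 (SE 0.12, edgeR adjusted p 2.02e-09), which is 3.36-fold lower and rank 204 from the bottom, where 3.74% of all genes were called. It combines a lower level on the beads with the higher level in input. The change on the beads alone was -1.52 (SE 0.088, edgeR adjusted p 1.95e-11), among 35.4% of all genes called. In the same comparison of enrichment Tnrc6a mRNA was also lower, at -0.86 (SE 0.24, edgeR adjusted p 0.0476). On the beads alone the change of Tnrc6a was not called, at -0.39 (SE 0.17, edgeR adjusted p 0.0829). Its input was higher, by 0.48 (SE 0.17, edgeR adjusted p 0.0380). The part of Tnrc6a in the value of Trim71 was not tested.

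The ratio of IP to input of Trim71 in experiment 2 was 1.18, 1.15 and 1.12 in cells labelled Trim71KO, again below every tagged ratio. The log2 change was -1.02 (SE 0.12, edgeR adjusted p 9.49e-06), 2.03-fold lower and rank 440 from the bottom, where 1.49% of all genes were called. With the replicate number as a block within fraction the genes called rose in number from 295 to 470, and Trim71 stayed among them. On the beads alone Trim71 fell by 0.60 on the log2 scale (SE 0.083, edgeR adjusted p 3.37e-06), among 33.4% of all genes called. Tnrc6a mRNA was not called here, at -0.40 (SE 0.28, edgeR adjusted p 0.542). The experiments were fitted separately and the difference between their values for Trim71 was not tested.

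Trim71 enrichment did not vanish in cells labelled Trim71KO. Against untagged cells, its ratio of IP to input remained higher by 0.67 on the log2 scale in experiment 1 (SE 0.12, edgeR adjusted p 7.27e-05). There 54.9% of all genes were called and 25.6% as higher. In experiment 2 the remaining enrichment was 0.39 (SE 0.12, edgeR adjusted p 0.00920), with 38.7% of all genes called and 23% as higher. This last call was lost with library size alone as the scaling (0.24, edgeR adjusted p 0.0925) and without untagged IP replicate 1 (0.30, edgeR adjusted p 0.0565).

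Ago2 is a member of the Argonaute family, whose proteins link microRNAs to Tnrc6 proteins. In cells labelled Ago2KO, the ratio of IP to input of Trim71 was 1.71, 1.56 and 1.39, below all tagged and above all Trim71KO ratios of that experiment. The log2 change against tagged cells was -0.58 (SE 0.12, edgeR adjusted p 0.00265), 1.50-fold lower, where 4.16% of all genes were called. On the beads alone Trim71 fell by 0.68 (SE 0.083, edgeR adjusted p 1.55e-06), among 16.4% of all genes called. Compared directly, enrichment in cells labelled Trim71KO was lower than in cells labelled Ago2KO by a log2 change of -0.44 (SE 0.12, edgeR adjusted p 0.0145), with 11.8% of all genes called. On the beads Trim71 was at 434 CPM on average in Trim71KO and 410.3 CPM in Ago2KO cells, with overlapping libraries, whereas its input was higher in Trim71KO, at 377 against 264 CPM without overlap. Enrichment over untagged cells that remained in Ago2KO was 0.83 (SE 0.12, edgeR adjusted p 4.55e-06), where 20.9% of all genes were called and 15.8% as higher. The 3 Ago2KO IP libraries that gave these ratios held Tnrc6a mRNA at 31194, 17218 and 14785 CPM, and the part of that spread in the Trim71 ratios was not tested.

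**Figure D3:**
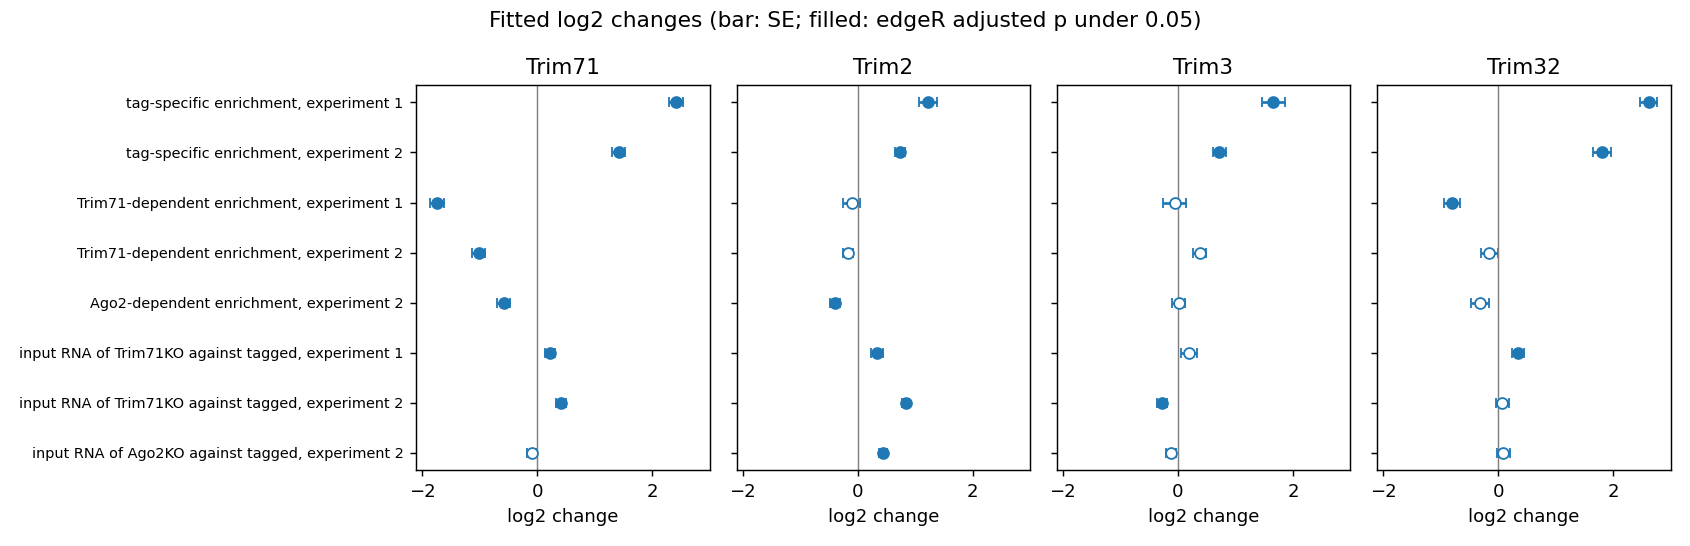
Fitted log2 change (x axis) of each TRIM-NHL gene in 8 comparisons (rows), with SE as bars and filled points where the edgeR adjusted p is under 0.05. Trim71 is filled in all 5 comparisons of enrichment, Trim32 in 3, Trim2 in 3 and Trim3 in 2.

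Trim32 was the TRIM-NHL mRNA with the largest tag-specific change in both experiments. Trim71 was next, at 2.42 and 1.41, and differences between genes were not tested. In experiment 1 its IP level was 26.3, 21.8 and 23.9 CPM in untagged cells, 159, 133 and 150 CPM in tagged cells and 125, 98.5 and 98.5 CPM in cells labelled Trim71KO. Input was 23.8, 22.8 and 20.9 CPM in untagged, 22.5, 22.8 and 22.6 CPM in tagged and 28.3, 27.8 and 29.8 CPM in Trim71KO cells. On the beads the 3 genotypes did not overlap and tagged cells were highest, whereas in input the Trim71KO libraries were highest. Tag-specific enrichment of Trim32 was 2.62 (SE 0.15, edgeR adjusted p 2.96e-13), 6.13-fold, in experiment 1. In experiment 2 it was 1.81 (SE 0.16, edgeR adjusted p 4.28e-10), 3.50-fold.

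The loss of Trim32 enrichment in cells labelled Trim71KO was called in experiment 1 alone. There the log2 change was -0.80 (SE 0.14, edgeR adjusted p 0.00104), and the ratio of IP to input was 4.43, 3.54 and 3.30 against 7.07, 5.85 and 6.66 in tagged libraries, without overlap. The IP level fell by 0.46 (SE 0.097, edgeR adjusted p 7.49e-04) and the input level rose by 0.34 (SE 0.11, edgeR adjusted p 0.0149), the latter lost without tagged input replicate 1 (0.0550) or 3 (0.0667) or without Trim71KO input replicate 3 (0.0910). In experiment 2 Trim32 IP was at 99.7, 79.7 and 75.8 CPM in tagged, 75.4, 78.7 and 87.0 CPM in Trim71KO and 87.0, 70.0 and 60.2 CPM in Ago2KO cells, all overlapping. The change in enrichment was -0.15 in Trim71KO (SE 0.15, edgeR adjusted p 0.692; -0.27 to -0.03 without 1 library) and -0.32 in Ago2KO (SE 0.15, edgeR adjusted p 0.347). The Ago2KO value reached -0.47 (edgeR adjusted p 0.0328) without Ago2KO IP replicate 1. Whether the experiments differ for Trim32 was not tested. Enrichment over untagged cells remained at 1.82 and 1.65 in Trim71KO cells of the experiments and at 1.49 in Ago2KO cells.

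Trim2 rose in the lysates of both knockout labels. In experiment 2 its input level was 44.5, 44.3 and 43.7 CPM in untagged, 47.3, 42.4 and 42.5 CPM in tagged, 79.4, 75.3 and 81.4 CPM in Trim71KO and 62.3, 56.4 and 60.8 CPM in Ago2KO cells. Trim71KO was highest and Ago2KO next, with neither overlapping any other genotype. Against tagged cells the log2 change was 0.84 in Trim71KO (SE 0.063, edgeR adjusted p 1.40e-10) and 0.44 in Ago2KO (SE 0.063, edgeR adjusted p 3.79e-05). In experiment 1 Trim2 input was at 44.7, 34.5 and 37.7 CPM in tagged and 48.2, 48.4 and 51.4 CPM in Trim71KO cells, without overlap. The change was 0.34 (SE 0.11, edgeR adjusted p 0.0192), a call lost without tagged input replicate 2 (0.104) or 3 (0.0787) or without Trim71KO input replicate 3 (0.0870).

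On the beads, Trim2 of experiment 2 was at 39.4, 40.9 and 36.9 CPM in untagged, 67.1, 66.5 and 62.1 CPM in tagged, 99.4, 103 and 110 CPM in Trim71KO and 68.8, 68.7 and 65.0 CPM in Ago2KO cells. Trim71KO IP was highest and apart, while tagged and Ago2KO IP overlapped. The IP change in Trim71KO was 0.67 (SE 0.062, edgeR adjusted p 4.61e-09), close to the input change of the same cells, and enrichment differed from tagged cells by -0.16 (SE 0.088, edgeR adjusted p 0.392). In Ago2KO the IP level did not follow the input. Its IP change was 0.05 (SE 0.062, edgeR adjusted p 0.656) and enrichment fell by 0.39 on the log2 scale (SE 0.089, edgeR adjusted p 0.00769). With library size alone as the scaling that fall was -0.28 (edgeR adjusted p 0.132). Between the knockout labels the difference in Trim2 enrichment was 0.23 (SE 0.087, edgeR adjusted p 0.0918).

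Tag-specific enrichment of Trim2 was 1.22 (SE 0.16, edgeR adjusted p 5.53e-07) in experiment 1, 2.33-fold, and 0.74 (SE 0.090, edgeR adjusted p 2.04e-07) in experiment 2, 1.67-fold. In experiment 1 its IP level was 30.0, 31.2 and 32.2 CPM in untagged, 69.2, 64.8 and 81.6 CPM in tagged and 95.3, 88.0 and 71.1 CPM in Trim71KO cells. The tag-bearing genotypes overlapped each other and lay above untagged IP. Trim71-dependent enrichment of Trim2 was -0.10 there (SE 0.15, edgeR adjusted p 0.830). In untagged cells Trim2 was lower on the beads than in input, by a log2 change of -0.34 (SE 0.11, edgeR adjusted p 0.0494), a call that was lost in all 6 fits without 1 library (-0.37 to -0.32). Enrichment over untagged cells remained at 1.12 and 0.58 in Trim71KO cells of the experiments and at 0.35 in Ago2KO cells (edgeR adjusted p 0.00492), the last not called with library size alone (0.0717).

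Trim3 remained enriched over untagged cells with either knockout label, by 1.60 (SE 0.20, edgeR adjusted p 3.16e-07) and 1.10 (SE 0.12, edgeR adjusted p 1.57e-08) in Trim71KO cells of the experiments and by 0.73 (SE 0.12, edgeR adjusted p 2.17e-05) in Ago2KO cells. In experiment 1 its IP level was 21.2, 19.7 and 18.9 CPM in untagged, 62.4, 48.7 and 49.7 CPM in tagged and 71.0, 53.7 and 51.7 CPM in Trim71KO cells. Tagged and Trim71KO IP overlapped and lay above untagged IP. Tag-specific enrichment was 1.66 (SE 0.20, edgeR adjusted p 1.86e-07), 3.16-fold, and the Trim71-dependent change was -0.06 (SE 0.19, edgeR adjusted p 0.933). In experiment 2 tag-specific enrichment was 0.72 (SE 0.12, edgeR adjusted p 1.91e-05), 1.65-fold.

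The ratio of IP to input of Trim3 in experiment 2 was 1.74, 1.54 and 1.49 in tagged, 1.87, 2.05 and 2.31 in Trim71KO and 1.85, 1.66 and 1.35 in Ago2KO libraries. The Trim71KO ratios were the highest and did not overlap the others. The Trim71-dependent change was 0.38 (SE 0.12, edgeR adjusted p 0.101), which passed the threshold with library size alone (0.44, edgeR adjusted p 0.0409) and without tagged IP replicate 1 (0.45, edgeR adjusted p 0.0373). The Ago2-dependent change was 0.01 (SE 0.12, edgeR adjusted p 0.984). Set directly against Ago2KO, enrichment in Trim71KO was higher by 0.37 (SE 0.12, edgeR adjusted p 0.0380), but this was not called with library size alone (0.31, edgeR adjusted p 0.0872) or in 9 of 12 fits without 1 library. Trim3 input was 26.9, 26.4 and 26.8 CPM in tagged and 23.3, 21.8 and 21.1 CPM in Trim71KO cells, without overlap, a log2 change of -0.28 (SE 0.084, edgeR adjusted p 0.0149). That call was lost without tagged input replicate 1 (0.0505) or Trim71KO input replicate 3 (0.0612). In experiment 1 the input change of Trim3 was 0.19 (SE 0.14, edgeR adjusted p 0.320), with 17.4, 13.5 and 18.7 CPM in tagged and 16.4, 21.5 and 18.5 CPM in Trim71KO cells, which overlapped.

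Per length, Trim71 was the most abundant of the 4 mRNAs. In tagged input of experiment 1 the level was 25.8 ± 2.27 CPM per kilobase for Trim71, 7.01 ± 0.0565 for Trim32, 3.62 ± 0.585 for Trim3 and 1.97 ± 0.266 for Trim2 (SD, n = 3). The order was the same in tagged input of experiment 2, at 30.2 ± 2.52 for Trim71, 7.56 ± 0.548 for Trim32, 5.85 ± 0.0613 for Trim3 and 2.23 ± 0.142 for Trim2. On the beads of tagged cells it was also the same, at 109 ± 8.65 for Trim71, 45.7 ± 4.00 for Trim32, 11.7 ± 1.68 for Trim3 and 3.64 ± 0.441 for Trim2 in experiment 1. The authors' RPKM of the tagged inputs differed from the CPM per kilobase by less than 1 SD for each gene. The gene model of Trim2 is long, which lowers its level per kilobase.

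The other TRIM genes, which encode TRIM proteins with other C-terminal domains or none, numbered 40 in experiment 1 and 45 in experiment 2 and all passed the filter. Tag-specific enrichment was called for 21 of 40 in experiment 1, 13 higher and 8 lower, with a median log2 change of 0.02 beside -0.10 over all genes. That is 52.5% of the list beside 56.9% of all genes. In experiment 2 it was called for 11 of 45, 7 higher and 4 lower, with a median of 0.07 beside -0.03, which is 24.4% of the list beside 27.7% of all genes. Of the 40 tested in both experiments, 8 were called in both with the same sign, 5 higher and 3 lower. The largest rises were those of Trim36 (5.87 and 3.77), Trim35 (1.50 and 1.04) and Trim37 (1.55 and 0.92). Trim52 (-1.23 and -0.64), Trim45 (-0.75 and -0.45) and Trim26 (-0.65 and -0.32) were lower. For Trim71-dependent enrichment 2 of 40 were lower in experiment 1 (Trim36 and Trim39) and 2 of 45 higher in experiment 2 (Trim25 and Trim35), which is 5% beside 3.74% of all genes and 4.44% beside 1.49%. Each of these was called in 1 experiment, whereas Trim71, the gene altered in Trim71KO, was called in both. The sign was the same in both experiments for each of them. Trim36 was at -1.54 (SE 0.38) and -0.74 (SE 0.38), and Trim39 at -0.73 (SE 0.16) and -0.28 (SE 0.12). Trim25 was at 0.08 (SE 0.13) and 0.47 (SE 0.10), and Trim35 at 0.23 (SE 0.16) and 0.38 (SE 0.091).

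**Figure D4:**
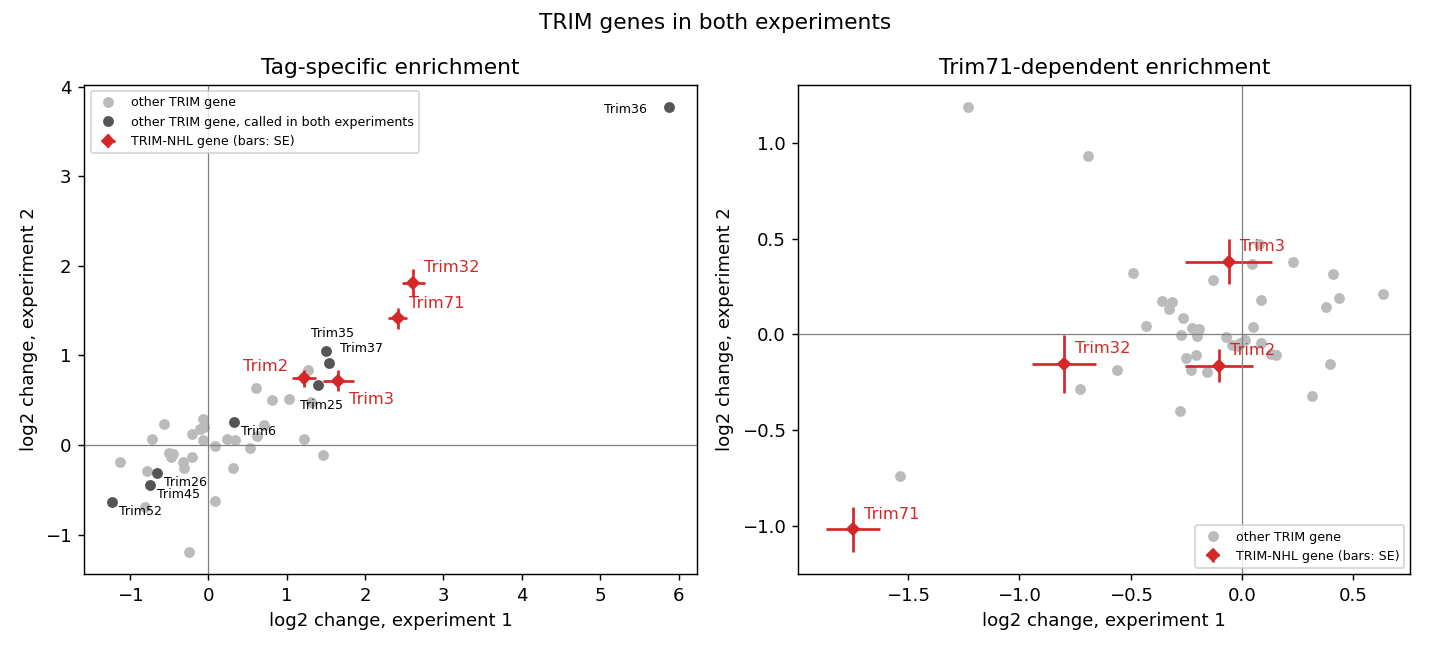
Log2 change of tag-specific (left) and Trim71-dependent (right) enrichment in experiment 1 (x axis) against experiment 2 (y axis) for the TRIM-NHL genes, as red diamonds with SE, and the 40 other TRIM genes measured in both. On the left the TRIM-NHL genes are all above 0 in both experiments, and on the right Trim71 lies at -1.75 and -1.02.

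Genes known as let-7 targets, a list of 18 chosen with results of these data known, give the setting for Trim71 as one of them. Tag-specific enrichment was called for 15 of 18 in experiment 1, 12 higher and 3 lower, with a median of 0.99 against -0.10 over all genes. That is 83.3% of the list beside 56.9% of all genes. In experiment 2 it was called for 12, 11 higher and 1 lower, with a median of 0.55 against -0.03, which is 66.7% beside 27.7%. Trim71-dependent enrichment was called for 1 of 18 in each experiment, Nras with -0.43 in experiment 1 and Lin28a with 0.40 in experiment 2, and the medians were -0.08 and 0.07 beside -0.04 and 0.01 over all genes. The share called was 5.56% in each, beside 3.74% and 1.49% of all genes. Ago2-dependent enrichment was called for 3 of 18, all lower, namely E2f5 (-1.01), Ccnd1 (-0.54) and Igf2bp3 (-0.43), which is 16.7% beside 4.16% of all genes. Beside these medians Trim71 stood at -1.75 and -1.02 for Trim71-dependent enrichment, and at -0.58 beside the list's median of -0.13 for Ago2-dependent enrichment. Set directly against Ago2KO, enrichment in Trim71KO was called for 10 of 18, 9 higher and 1 lower. That is 55.6% of the list beside 11.8% of all genes. The list's median was 0.33 there beside -0.01 over all genes, whereas Trim71 stood at -0.44. In the Trim71KO comparison Trim71 is the altered gene itself, unlike the genes of the list. The list of 9 genes reported as TRIM71 targets was also chosen with results of these data known, so its shares are given as a description. In Trim71-dependent enrichment of experiment 1, 6 of the 9 were called lower, with a median of -0.92 beside -0.04. That is 66.7% of the list beside 3.47% of all genes called lower. In experiment 2, 2 of 8 tested were called lower, Mbnl1 (-1.89) and Plxnb2 (-0.77), with a median of -0.14 beside 0.01. That is 25% beside 0.738% of all genes called lower.

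The genes most like Trim71 were sought among 11517 others by the Euclidean distance over 5 log2 changes, which are tag-specific and Trim71-dependent enrichment in both experiments and Ago2-dependent enrichment. These changes share tagged libraries, so they are given as a description. The genes below were picked on these same changes, so their likeness to Trim71 in them follows from the choice. The nearest were Tmem263 (distance 0.445), Rcor1 (0.447), Eloa (0.537), Atl3 (0.586) and Atxn3 (0.609), where the median distance was 3.61. Rcor1 encodes a corepressor of the REST complex, Eloa a subunit of elongin, Atl3 an atlastin of the endoplasmic reticulum and Atxn3 a deubiquitinase. Rcor1 had changes of 2.65, 1.77, -1.86, -1.05 and -0.51, and Atxn3 had 2.53, 1.96, -1.67, -1.10 and -0.79, both called in all 5 as Trim71 was. Tmem263, Eloa and Atl3 were called in the first 4 and not for the Ago2-dependent change, which was -0.27, -0.48 and -0.39. The ratio of mean IP to mean input of Rcor1 went from 6.43 in tagged to 1.77 in Trim71KO cells in experiment 1, and that of Tmem263 from 4.70 to 1.25, beside 4.23 to 1.26 for Trim71. Of the other TRIM-NHL genes, Trim32 ranked 99 by this distance, Trim2 1263 and Trim3 1750.

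**Figure D5:**
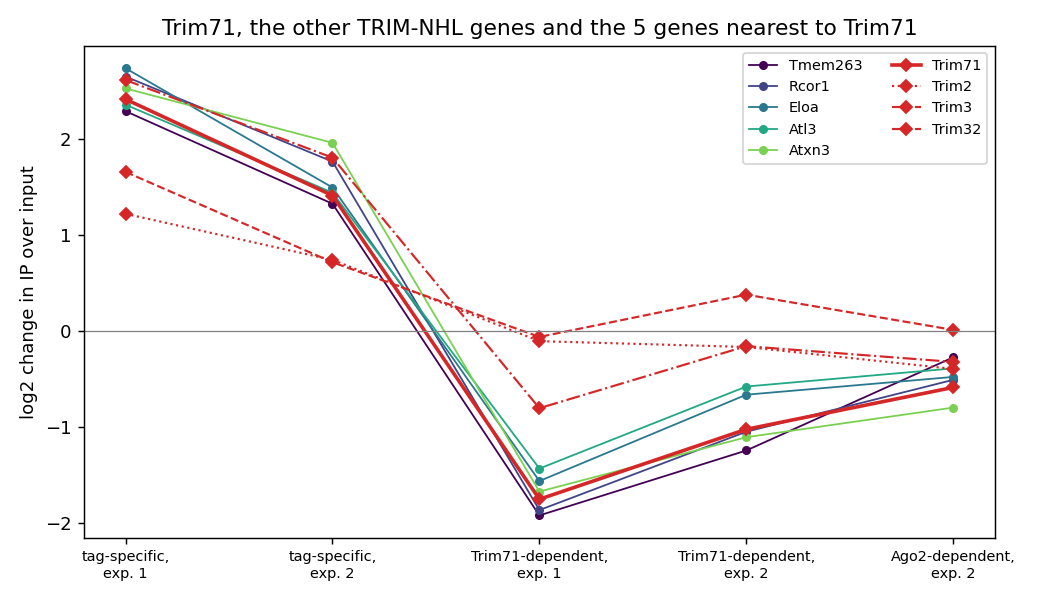
Log2 change in IP over input (y axis) in 5 comparisons (x axis) for the TRIM-NHL genes (red) and the 5 genes nearest to Trim71. The nearest genes, picked on these 5 changes, lie between -1.43 and -1.92 for Trim71-dependent enrichment in experiment 1, where Trim2 and Trim3 lie at -0.10 and -0.06.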

How the data were processed

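For each experiment the authors deposited gene-level read counts that were not normalized, beside RPKM values and gene lengths. Per the submitters' processing notes the build was GRCm38/mm10 and STAR 2.7.3a and bcl2fastq 2.20 were used. The name of the gene length column refers to QuasR, per the file headers, but the counting step and annotation are otherwise not given in the sources used here. Columns were assigned through their titles, with 0 left unmapped. The quasi-likelihood test of edgeR 4.0.16 (R 4.3.3) was run on the counts (TMM, filterByExpr, all groups of an experiment in 1 fit, Benjamini-Hochberg over all genes), and the script was tested on simulated counts. SE is the log2 change over the square root of F. Intervals and SEs do not correct for duplicate reads.

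Between replicates the chi-square per gene was 2.87 to 64.1 in 42 pairs, so each library counted once. Same-numbered libraries of tagged and Trim71KO cells deviated together in experiment 2, with correlations of 0.285 to 0.422 in input and 0.276 to 0.388 in IP, so the numbers pair them there. The same held for tagged input with tagged IP of that experiment, with correlations of 0.130 to 0.222. In 22 of 25 group pairs at least 1 number had a correlation of 0.1 or less. The main fit had no replicate block, so its SEs and p-values leave the pairing of experiment 2 unused. The block was run as an alternative only.

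The 4 genes and the lists were chosen with earlier results of these data known. Besides the 4 genes in every comparison, the text names the 5 nearest to Trim71 (mean log2 CPM of at least 2), up to 3 other TRIM genes each way called in both experiments, and, after their values were seen, the genes behind counts of 5 or fewer. Alternatives were RLE and library size scaling, DESeq2 1.42.0, no filter, only the groups compared, the replicate number as a block, each library left out, RPKM for levels and correlation for likeness. The block was set within fraction or, for comparisons that hold both input and IP, by culture, which joins same-numbered input and IP.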

Additional observations from a re-analysis of the deposited data

Results flagged for a closer look

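In experiment 2 the change in enrichment differed between the knockout labels, by the direct test of Trim71KO against Ago2KO, for Trim71 (-0.44) and for Trim3 (0.37). The value for Trim71 was called in each of its alternatives, whereas that for Trim3 was lost in most fits without 1 library.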

How the results depend on the processing

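Of 500 values of the 4 genes under other settings, 484 kept their call and 16 changed it, and of 672 values without 1 library 636 kept theirs. For Trim71, tag-specific, Trim71-dependent and Ago2-dependent enrichment and the change on the beads kept their calls throughout. Values that were called on neither side crossed 0 in 16 of the settings and in 35 of the fits without 1 library. Trim71 input of Trim71KO against tagged cells in experiment 1 was not called with RLE size factors (0.22) or the replicate block within fraction (0.23), and ranged from 0.18 to 0.28 without 1 library. Its bead background in experiment 1 was not called with the replicate block within fraction (-0.38) and ranged from -0.38 to -0.31. What remained of its enrichment in Trim71KO of experiment 2 was not called with library size alone (0.24) and ranged from 0.30 to 0.42.

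Library size alone as the scaling moved the median of all genes by up to -0.39, in bead background of experiment 1, where Trim3 (-0.35) and Trim32 (-0.30) turned from above to below 0 and were called. It also gained calls for Trim2 in bead background of experiment 2 (-0.26) and on the beads of Trim71KO in experiment 1 (0.40), and for Trim3 in Trim71-dependent enrichment of experiment 2 (0.44). It lost Trim2 in Ago2-dependent enrichment (-0.28) and in what remained in Ago2KO (0.25), and Trim3 between the knockout labels (0.31). Bead background of Trim2 in experiment 1 was not called with RLE (-0.33), DESeq2 (-0.33), the replicate block within fraction (-0.38) or by culture (-0.34), and ranged from -0.37 to -0.32 without 1 library. The cause of these shifts was not tested beyond the scaling itself.

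Without 1 library the ranges of the other values that changed their call were, for Trim2, 0.27 to 0.43 in input and 0.17 to 0.43 on the beads of Trim71KO in experiment 1. For Trim3 they were 0.29 to 0.45 in Trim71-dependent enrichment, -0.31 to -0.25 in Trim71KO input and 0.28 to 0.43 between the knockout labels, all in experiment 2. For Trim32 they were 0.30 to 0.36 in Trim71KO input of experiment 1, and -0.47 to -0.20 in Ago2-dependent enrichment and -0.38 to -0.12 on the beads of Ago2KO in experiment 2. The replicate block changed no call other than those named. Over all genes, the number called in Trim71-dependent enrichment of experiment 2 was 295, against 136 with only the groups compared, 489 with library size alone, 470 with the replicate block within fraction, 522 with that by culture and 548 with DESeq2. In bead background of experiment 1 it was 2273, against 10201 with library size alone, 1146 with the block within fraction and 4612 with only the groups compared. In that of experiment 2 it was 144, against 574, 423 with the block within fraction, 266 with that by culture and 283 with DESeq2. With only the groups compared it went from 1376 to 2481 in Ago2KO input, from 275 to 497 between tagged and untagged input of experiment 2, and from 3236 to 1582 on the beads of Ago2KO. Of the calls in tag-specific enrichment of experiment 2, 68.4% were higher, against 36.5% with library size alone. In what remained in Trim71KO and in Ago2KO of that experiment 59.5% and 75.6% were higher, against 43.5% and 57.3%, and with RLE the latter was 64.8%. In Trim71-dependent enrichment 7.25% of the calls were higher in experiment 1 and 50.5% in experiment 2. With library size alone these shares were 24.6% and 75.7%, and without the filter that of experiment 2 was 34.8%. In bead background of experiment 1 the share was 59.6%, against 4.88% with library size alone. Likeness by Pearson correlation over the 5 changes named 5 other genes, 0 of them shared with those nearest by distance. The lowest count of a TRIM-NHL gene in any library was 236; whether depth limits any of these values was not tested.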
